A study of Danio rerio with 2 samples.

Results

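The genes that run the cell division cycle were measured in single cells of the zebrafish trunk, in progenitor-like, neuron-like and fibroblast-like cells of the same libraries. They were taken by symbol alone: *mcm2* to *mcm7*, *orc1* to *orc6*, *rrm1* and *rrm2* with *rrm2b*, *pcna*, the A, B, D and E cyclins (*ccna*, *ccnb*, *ccnd*, *ccne*), *cdk1*, *cdk2*, *cdk4* and *cdk6*, the Aurora genes (*aurk*), *plk1*, the *bub1* genes, *kif11*, *kif20* and *kif23* genes, *mki67*, *top2a*, every *cenp* gene and the *e2f* genes. This gave 66 of the 36351 genes in the tables: 16 of DNA replication, 11 cyclins, 4 kinases, 14 of mitosis, 15 of the centromere and 6 E2F factors. All 66 had counts in at least 1 library. The symbol rule also takes in *aurkaip1*, named after a protein that binds Aurora A kinase but known as a component of the mitochondrial ribosome, and *rrm2b*, a ribonucleotide reductase subunit that in mammals serves cells outside S phase.

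The cells were EGFP-positive trunk cells, FAC-sorted from embryos at 48 hpf, methanol-fixed and run as 2 droplet libraries (10x Genomics, 3′ chemistry). The parents were evx1i232/+;evx2sa140/+;Tg(evx1:EGFP)SU2 fish, so all embryos carried an EGFP transgene that reports *evx1*, a gene of V0v spinal interneurons, and the sort pooled embryos of every *evx1* and *evx2* genotype. No cell has a genotype label, and both libraries, labelled as V0v spinal interneurons, were taken as replicates of a single group. Their titles differ (OtherGFP for library 1, AllGFP for library 2) without explanation, so a difference in the sort between them cannot be told apart from a difference between replicates.

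A cell that divides copies its DNA once in S phase and separates the copies in mitosis. D-type cyclins with CDK4 or CDK6 start the process by releasing E2F factors from the retinoblastoma protein, and E2F factors then switch on replication genes. The origin recognition complex (ORC) and the MCM helicase open the DNA, PCNA holds the polymerase on it, and ribonucleotide reductase (RRM1 with RRM2) supplies the nucleotides. Later, cyclin A and cyclin B with CDK1 drive mitosis, Aurora and Polo kinases and kinesins build the spindle, and centromere proteins attach chromosomes to it. In the neural tube, radial glia-like progenitors divide along the ventricle, whereas neurons leave the cycle when they differentiate and do not re-enter it.

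Library 1 held 4373 cells and 18908819 unique molecular identifiers (UMIs), and library 2 held 6223 cells and 34071583 UMIs, with a median of 3640 and 4431 UMIs per cell. The libraries shared 3 cell barcodes. After filtering, 3571 and 4556 cells remained, and these fell into 18 clusters, computed with the cell cycle genes left out so that no member defined a cell class. Neuron-like cells, named from *elavl3*, *elavl4*, *snap25a*, *gng3*, *sncb* and *stmn2a*, numbered 3249 in library 1 and 3044 in library 2. Progenitor-like cells (a single cluster with *gfap*, *fabp7a*, *her4.1*, *sox2* and other radial glia genes) numbered 142 and 198. Fibroblast-like cells, named from collagen genes, *pdgfra* and *dcn*, numbered 56 and 637. The summed level of the 8 fibroblast markers in fibroblast-like cells was 10999 and 10789 in libraries 1 and 2, in counts per 1000000 UMIs (CPM), and at most 54.7 CPM in the other classes. The summed level of the 12 progenitor markers was 16184 and 16704 CPM in progenitor-like cells and at most 499 CPM in the others. The 6 neuron markers summed to 8166 and 8591 CPM in neuron-like, 1241 and 1397 CPM in progenitor-like and at most 518 CPM in fibroblast-like cells. *elavl3* alone was at 765 and 1019 CPM in progenitor-like cells, so this class was not free of neuronal transcripts. The progenitor-like and fibroblast-like cells thus carried markers that go against the label V0v interneurons. For its own analysis the study kept only cells it assigned to post-mitotic V0v neurons and left out immature spinal cells, a selection not made here. Neuron-like clusters 0, 1, 2, 5 and 6 came almost wholly from library 1, so different clusters held most of the class in each library, and heat-shock genes were among the leading genes of each of these clusters.

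Both the progenitor-like and the fibroblast-like cells held many times more cell cycle transcripts than the neuron-like cells. The 66 genes together reached 2095 CPM in library 1 and 1399 CPM in library 2 in progenitor-like cells (mean 1747 ± 492, SD, n = 2). They reached 2552 and 2420 CPM in fibroblast-like cells, and 245 and 313 CPM in neuron-like cells. Neuron-like cells lay lowest in both libraries and the other classes did not overlap with them. Within a library, the summed level in progenitor-like cells was 8.56-fold that of neuron-like cells in library 1 and 4.47-fold in library 2 (mean log2 ratio 2.63 ± 0.66, SD, n = 2). For fibroblast-like cells it was 10.4-fold and 7.74-fold (mean log2 ratio 3.17 ± 0.30, SD, n = 2). Because UMIs count molecules at 3′ ends, levels of different genes need no correction for length.

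**Figure D1:**
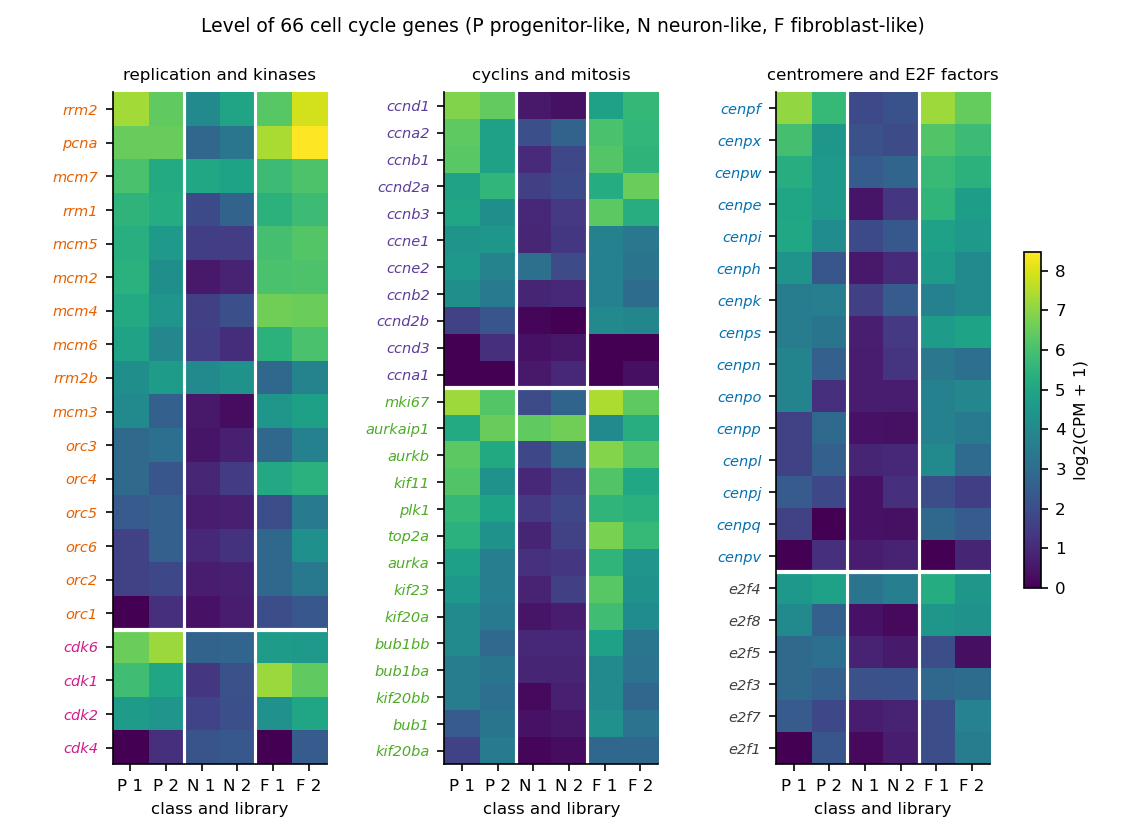
Heat maps of the level of all 66 members, as log2(CPM + 1), with genes in rows grouped by role and the 3 classes (P progenitor-like, N neuron-like, F fibroblast-like) of libraries 1 and 2 in columns. Most genes were dark, that is low, in both neuron-like columns, while *aurkaip1* and *mcm7* were among the brightest there. The cyclins summed to 18.2 and 19.6 CPM in neuron-like cells against 396 and 257 CPM in progenitor-like cells.

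Gene by gene, 57 of the 66 members had enough counts to be tested between progenitor-like and neuron-like cells, and 49 of them were higher in progenitor-like cells while 0 were lower (edgeR quasi-likelihood test on summed UMIs, Benjamini-Hochberg adjusted over 13179 genes). Of all genes tested, 21.2% were higher and 25.3% were lower. At an unadjusted p under 0.05 the counts were 52 and 0, and DESeq2 called 49 and 0. The median log2 fold change of the tested members was 3.64, beside −0.15 for all genes tested. The members had passed a filter on low counts partly through the classes in which they were high, so the median describes only the 57. Counting all 66, the CPM was higher in progenitor-like cells in both libraries for 58 and lower in both for 3. No share of all genes is given for the direction in both libraries, the unadjusted threshold or DESeq2, so those counts lack a background. The same cells gave the clusters and the levels compared, although through different genes.

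**Figure D2:**
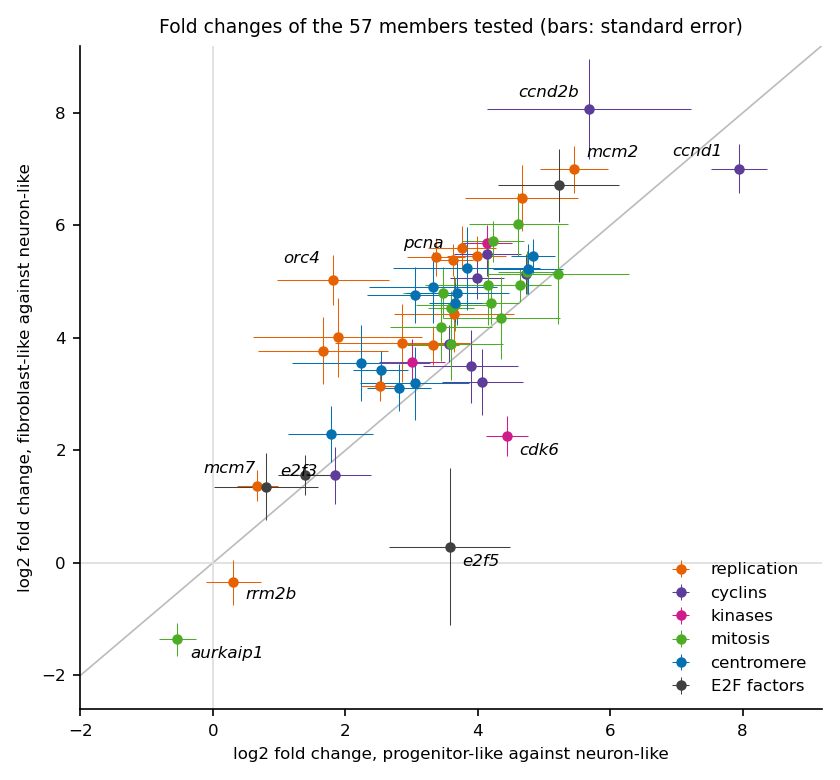
Log2 fold change of each of the 57 tested members against neuron-like cells, for progenitor-like cells on the horizontal and fibroblast-like cells on the vertical axis, with the standard errors of the edgeR fit as bars and the colour giving the role. Most members lay above 0 on both axes and above the diagonal of equal change, *cdk6* and *ccnd1* lay below the diagonal, and *aurkaip1*, *rrm2b* and *mcm7* were the nearest to 0 or under it on the horizontal axis. Both axes share the neuron-like sums.

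Among the replication genes, 10 of 15 tested were higher in progenitor-like than in neuron-like cells. *rrm2*, the regulated subunit of ribonucleotide reductase, was measured at 155 CPM in library 1 and 82.8 CPM in library 2 in progenitor-like cells, at 15.2 and 30.1 CPM in neuron-like cells, and at 76.6 and 235 CPM in fibroblast-like cells. Its level in neuron-like cells was the highest of the called replication genes, and the groups did not overlap (log2 fold change 2.52 ± 0.27, SE, adjusted p = 9.7e-19). Within the neuron-like class it was uneven, at 385 CPM in cluster 4 (described below) and at 2.58 to 11.4 CPM in the other clusters. *pcna*, the sliding clamp of DNA polymerase, was at 90.7 and 89.1 CPM in progenitor-like cells against 5.97 and 9.08 CPM in neuron-like cells (3.63 ± 0.30, adjusted p = 3.4e-32). Its libraries were close in progenitor-like cells and further apart in neuron-like cells. *rrm1*, the large subunit of the reductase, stood at 44.2 and 36.9 CPM against 2.70 and 5.52 CPM (3.33 ± 0.39, adjusted p = 2.1e-16). *mcm2*, a helicase subunit, showed one of the 3 highest fold changes of all members, with 42.0 and 17.8 CPM against 0.491 and 0.757 CPM (5.46 ± 0.52, adjusted p = 1.4e-24).

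*mcm7* was the exception within the helicase. It encodes a subunit of the same ring of 6 proteins as *mcm2* to *mcm6*, yet its level was 33.0 and 29.3 CPM in neuron-like cells against 64.1 and 35.7 CPM in progenitor-like cells. The difference did not pass the test (0.67 ± 0.31, adjusted p = 0.063), and it did pass under 6 of 13 other settings. The other 5 *mcm* genes were at most 3.18 CPM in neuron-like cells and all 5 were called, at log2 fold changes from 3.37 to 5.46. In neuron-like cells *mcm7* therefore stood at 67.3 and 38.7 times the level of *mcm2*, whereas in progenitor-like cells the ratio was 1.53 and 2.0 and in fibroblast-like cells 0.857 and 0.984. In the RefSeq annotation (assembly GRCz12tu) the span of *mcm7* holds the microRNA genes *mir25*, *mir93* and *mir19d*, and whether reads of their host transcript add to the *mcm7* count was not tested.

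*rrm2b* was also near its progenitor level in neurons, with 17.7 and 24.2 CPM in progenitor-like cells and 15.5 and 19.2 CPM in neuron-like cells (0.31 ± 0.42, adjusted p = 0.58). It was the replication gene with the smallest fold change. The origin complex genes were low everywhere in the neural cells. *orc2* was at 2.21 and 2.55 CPM in progenitor-like cells (1.89 ± 1.28, adjusted p = 0.23), *orc4* at 6.64 and 3.82 CPM (1.81 ± 0.85, adjusted p = 0.067) and *orc6* at 2.21 and 5.09 CPM (1.66 ± 0.98, adjusted p = 0.16). These values rest on few UMIs. Under other settings *orc4* and *orc6* passed the test in 5 of 13 each and *orc2* in 1 of 12. *orc3* and *orc5* passed the test, and *orc1* was too low to be tested.

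All 9 tested cyclins were higher in progenitor-like cells. *ccnd1*, the D-type cyclin that responds to growth signals, had the largest fold change of all members. It was at 115 and 86.6 CPM in progenitor-like cells, 0.491 and 0.303 CPM in neuron-like cells and 27.6 and 49.0 CPM in fibroblast-like cells. In all the neuron-like cells together 10 UMIs of it were counted, against 120 in the far fewer progenitor-like cells (7.94 ± 0.42, adjusted p = 7.8e-76). *ccna2*, the S and G2 phase cyclin, was at 81.8 and 28.0 CPM against 3.19 and 5.52 CPM (3.56 ± 0.37, adjusted p = 7.9e-21). *ccnb1*, the mitotic cyclin, was at 77.4 and 28.0 CPM against 1.06 and 2.57 CPM (4.74 ± 0.40, adjusted p = 3.9e-30). For these 2 genes library 1 was the higher of the progenitor samples, and for *ccnd2a*, a second D-type cyclin, library 2 was: its level was 28.8 and 47.1 CPM against 2.04 and 2.72 CPM (3.99 ± 0.41, adjusted p = 2.0e-21). *ccnd2b* had the second highest fold change, but on 4 UMIs in progenitor-like cells against 1 in neuron-like cells, a pooled ratio of 82.2 with a 95% counting interval from 8.14 to 4051. *ccna1*, which in mammals is a germ line cyclin, had no UMI in progenitor-like cells, and *ccnd3* had a level of 0 and 1.27 CPM there.

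The D-type cyclins changed places between cell classes. The ratio of *ccnd1* to *ccnd2a* levels was 4.00 and 1.84 in progenitor-like cells, 0.750 and 0.538 in fibroblast-like cells, and 0.24 and 0.111 in neuron-like cells. In both libraries *ccnd1* led in progenitor-like cells and *ccnd2a* in the other classes, in library 1 of the fibroblast-like cells on 9 against 12 UMIs. The ratio was not tested.

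Their partner kinases were just as uneven. *cdk6* was at 95.1 and 145 CPM in progenitor-like cells, 5.56 and 5.83 CPM in neuron-like cells and 24.5 and 22.7 CPM in fibroblast-like cells (4.44 ± 0.32 against neuron-like cells, adjusted p = 2.1e-42). Progenitor-like cells were far above the others in both libraries. *cdk4*, which encodes the alternative partner, had 1 UMI in all 340 progenitor-like cells, where 157 UMIs of *cdk6* were counted. Its level was 0 and 1.27 CPM there, 3.6 and 4.09 CPM in neuron-like cells and 0 and 4.48 CPM in fibroblast-like cells, and it was too low to be tested. Pooled over libraries, *cdk4* was 4.77 times as high in neuron-like as in progenitor-like cells, with a counting interval from 0.836 to 190 that includes equal levels. *cdk4* overlaps *nckap1l* in the RefSeq annotation, and whether the low count reflects how reads were assigned was not tested. *cdk1*, the mitotic kinase, was at 57.5 and 30.6 CPM in progenitor-like and 1.55 and 3.25 CPM in neuron-like cells (4.13 ± 0.38, adjusted p = 1.5e-25). *cdk2*, the S phase kinase, was at 24.3 and 20.4 CPM against 2.29 and 3.18 CPM (3.01 ± 0.50, adjusted p = 1.1e-08). The groups did not overlap for either gene.

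Of the 14 mitosis genes, 13 were higher in progenitor-like cells. *mki67*, the proliferation marker that coats mitotic chromosomes, was at 148 and 72.6 CPM in progenitor-like cells, 2.86 and 5.6 CPM in neuron-like cells and 172 and 80.9 CPM in fibroblast-like cells (4.64 ± 0.31 against neuron-like cells, adjusted p = 3.8e-49). *aurkb*, the kinase of the chromosomal passenger complex, was at 79.6 and 34.4 CPM against 2.54 and 6.58 CPM in neuron-like cells (3.59 ± 0.35, adjusted p = 1.8e-23). *kif11*, the kinesin that pushes the spindle poles apart, was at 70.8 and 19.1 CPM against 0.981 and 1.97 CPM (4.74 ± 0.44, adjusted p = 1.1e-25). In each of these genes the progenitor-like cells of library 1 held more than those of library 2, and the neuron-like cells of both libraries were well below.

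*aurkaip1* stood alone among the mitosis genes. It was at 35.4 and 89.1 CPM in progenitor-like cells, 82.9 and 97.4 CPM in neuron-like cells and 15.3 and 37.8 CPM in fibroblast-like cells. Its difference between progenitor-like and neuron-like cells did not pass the test (−0.54 ± 0.28, adjusted p = 0.11), and it was the single member lower in fibroblast-like than in neuron-like cells (−1.36 ± 0.29, adjusted p = 8.3e-06). By itself it made up 33.9% and 31.1% of all member UMIs of neuron-like cells, and 85.9% and 78.9% of their mitosis UMIs. Without it, the summed level of the mitosis genes was 498 and 250 CPM in progenitor-like cells and 13.7 and 26.1 CPM in neuron-like cells.

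Of the centromere genes, 11 of 12 tested were higher in progenitor-like cells. *cenpf*, a large protein of the outer kinetochore that accumulates in G2 phase, was at 135 and 49.7 CPM against 2.62 and 3.4 CPM in neuron-like cells (4.84 ± 0.33, adjusted p = 8.5e-48). *cenpx*, a histone-fold protein that in human cells also acts in DNA repair, was at 61.9 and 21.6 CPM against 3.27 and 2.95 CPM (3.66 ± 0.40, adjusted p = 1.3e-18). The libraries differed more in these genes than in *pcna* or *rrm1*, but the groups did not overlap. *cenpw*, a partner of histone-fold centromere proteins, was at 37.6 and 22.9 CPM against 4.50 and 5.75 CPM (2.54 ± 0.41, adjusted p = 8.0e-09). *cenpe*, a kinesin of the kinetochore, was at 31.0 and 22.9 CPM against 0.409 and 1.51 CPM (4.76 ± 0.53, adjusted p = 4.7e-18). *cenpl* did not pass the test at 2.21 and 5.09 CPM in progenitor-like cells (2.24 ± 1.04, adjusted p = 0.067) but did in 2 of 12 other settings, and *cenpj*, *cenpq* and *cenpv* were too low to be tested.

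The E2F factors were low in all classes, and 3 of the 4 tested were higher in progenitor-like cells. *e2f4*, a factor known mainly as a repressor, was at 22.1 and 28.0 CPM against 8.67 and 11.3 CPM in neuron-like cells, the smallest fold change of the called E2F genes (1.39 ± 0.41, adjusted p = 0.0024). *e2f8*, an atypical repressor that is itself made in S phase, was at 15.5 and 5.09 CPM against 0.327 and 0.151 CPM (5.22 ± 0.92, adjusted p = 9.2e-08). *e2f5*, another repressor of the family, was at 6.64 and 7.64 CPM against 0.736 and 0.530 CPM (3.57 ± 0.92, adjusted p = 0.00039). *e2f3*, an activator, was at 6.64 and 5.09 CPM against 3.27 and 3.4 CPM, and this difference did not pass the test (0.80 ± 0.79, adjusted p = 0.43), though it did in 4 of 13 other settings. *e2f1* and *e2f7* were too low to be tested.

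**Figure D3:**
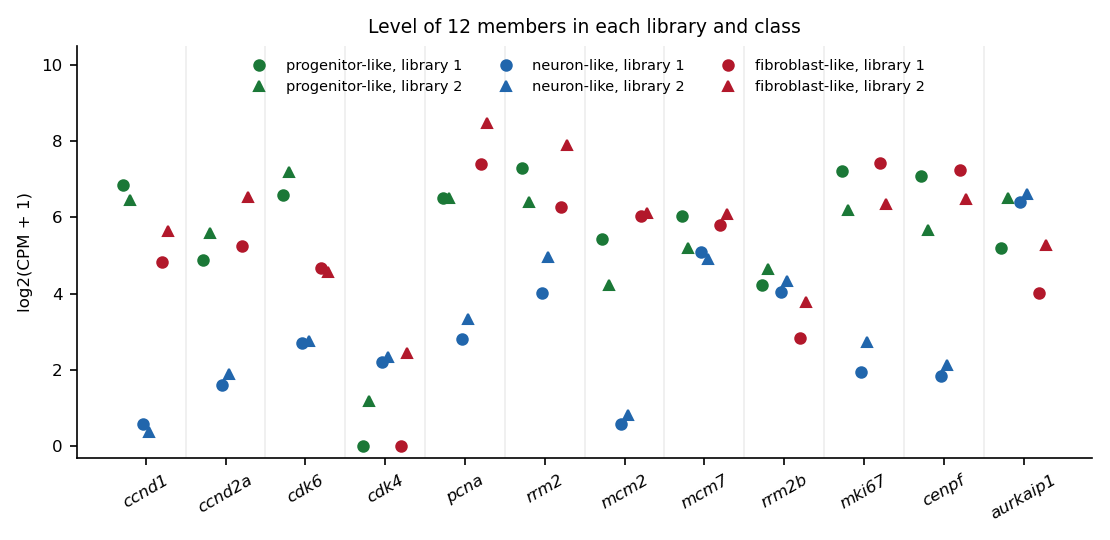
Levels of 12 members as log2(CPM + 1) in progenitor-like, neuron-like and fibroblast-like cells, with a circle for library 1 and a triangle for library 2. *ccnd1* and *cdk6* were highest in progenitor-like cells and *pcna* in fibroblast-like cells, while the neuron-like levels of *aurkaip1*, *mcm7* and *rrm2b* did not stand far below those of progenitor-like cells.

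Fibroblast-like cells exceeded neuron-like cells in 54 of the 57 tested members and were lower in 1, *aurkaip1*. Of all genes tested, 30.9% were higher and 34.0% lower, and the members' median log2 fold change was 4.62 beside −0.19 for all genes tested. *e2f5* (0.29 ± 1.40, adjusted p = 0.87) and *rrm2b* (−0.35 ± 0.39, adjusted p = 0.44) did not pass. *mcm7* was called here (1.38 ± 0.27, adjusted p = 1.6e-06), at the lowest fold change of the *mcm* genes. This comparison and that of progenitor-like cells share the neuron-like sums, so their calls are not independent of each other.

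Progenitor-like and fibroblast-like cells, set directly against each other, differed in part of the cell cycle genes. Of the 57 members, 4 were higher in progenitor-like cells (*cdk6*, *ccnd1*, *e2f5* and *aurkaip1*) and 18 were higher in fibroblast-like cells, while 13.5% of all genes tested were higher in progenitor-like and 17.2% in fibroblast-like cells. The other 35 did not pass. The members' median log2 fold change was −0.78, beside −0.03 for all genes tested, and the summed level of all members differed by a mean log2 ratio of −0.54 ± 0.36 (SD, n = 2).

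Of the 18 members higher in fibroblast-like cells, 8 were replication genes. *pcna* was at 168 CPM in library 1 and 354 CPM in library 2 in fibroblast-like cells, against 90.7 and 89.1 CPM in progenitor-like cells (−1.76 ± 0.28, adjusted p = 4.2e-09). *mcm2*, *mcm3*, *mcm4*, *mcm5* and *mcm6* were all called, at −1.47 to −2.07, and *mcm7* was not (−0.71 ± 0.32, adjusted p = 0.085). *orc4*, at 33.7 and 41.4 CPM in fibroblast-like cells, had the largest difference of the 18 (−3.22 ± 0.60, adjusted p = 9.8e-07), with *orc6* also called (−2.11 ± 0.79, adjusted p = 0.028). The calls of *pcna* and *orc4* held in all 13 other settings that gave a value, and that of *orc6* was lost in 6 of 13, with a value as near to 0 as −0.24. Replication genes summed to 695 and 1148 CPM in fibroblast-like cells against 555 and 374 CPM in progenitor-like cells. *rrm1* and *rrm2* did not pass the test.

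The remaining members higher in fibroblast-like cells were a kinase, cyclins, and mitosis and centromere genes. *cdk1* was at 147 and 83.7 CPM in fibroblast-like cells against 57.5 and 30.6 CPM in progenitor-like cells (−1.55 ± 0.33, adjusted p = 1.6e-05). *top2a*, the topoisomerase that untangles sister DNA, was at 107 and 50.4 CPM against 42.0 and 19.1 CPM (−1.49 ± 0.38, adjusted p = 0.00051). *aurkb*, *kif20a*, *kif23*, *ccnb3*, *cenps* and *cenpx* were called at −0.94 to −1.72. Over the 13 other settings the call was lost in 8 for *kif20a*, 7 for *kif23*, 5 for *cenpx*, 4 for *aurkb*, 3 for *ccnb3*, 2 each for *cdk1* and *top2a* and 1 for *cenps*. The D-type cyclins *ccnd2a* (−1.07 ± 0.35, adjusted p = 0.0098) and *ccnd2b* (−2.39 ± 0.86, adjusted p = 0.021) were called too, while *mki67* (−0.30 ± 0.28, adjusted p = 0.45), *ccna2*, *ccnb1* and *kif11* were not.

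In the other direction, *cdk6* was 2.18 ± 0.34 log2 units higher in progenitor-like than in fibroblast-like cells (adjusted p = 1.6e-09), and this call held under all 13 other settings that gave a value. *ccnd1* was 0.93 ± 0.32 higher (adjusted p = 0.016), but its call was lost in 9 of 13 settings, in 1 of which its value was −0.0085 when the UMIs of each cell were split so that clusters and levels came from different counts. *e2f5* was 3.29 ± 1.24 higher (adjusted p = 0.029) on 9 UMIs against 2, a pooled ratio of 14.2 with a counting interval from 2.93 to 135, and lost its call in 3 settings. *aurkaip1* was 0.82 ± 0.32 higher (adjusted p = 0.039) and lost its call in 6. The fibroblast-like sum of library 1 came from 56 cells, the fewest of any sum, and DESeq2 called 6 members in this comparison, all of them among the 22.

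The same classes were next described cell by cell, after each cell had been thinned to 2000 UMIs. At least 1 member UMI was found in 80 of 107 progenitor-like cells of library 1 (74.8%, exact binomial 95% CI 65.4 to 82.7) and in 138 of 182 of library 2 (75.8%, CI 68.9 to 81.9). The shares were 71.4% and 74.0% in fibroblast-like cells, and 34.3% and 36.8% in neuron-like cells. Much of the neuron-like share came from *aurkaip1*, *mcm7* and *rrm2b*, which held 56.4% and 51.6% of the member UMIs of those cells. With the other 63 genes alone the shares were 14.0% and 16.0% in neuron-like, 72.0% and 67.6% in progenitor-like and 69.6% and 71.0% in fibroblast-like cells. These intervals cover counting error only, and 35 and 16 progenitor-like, 241 and 107 neuron-like, and 0 and 13 fibroblast-like cells were too shallow to be thinned. Before thinning and with the shallow cells included, the median depth was 2928 and 3736 UMIs in progenitor-like and 3689 and 4342 UMIs in neuron-like cells.

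Cell cycle transcripts were concentrated in a minority of the progenitor-like cells. At least 5 member UMIs were found in 27 of 107 cells of library 1 (25.2%, CI 17.3 to 34.6) and 25 of 182 of library 2 (13.7%, CI 9.09 to 19.6), against 10 of 3008 (0.332%) and 18 of 2937 (0.613%) neuron-like cells. These cells carried 77.7% and 53.2% of the member UMIs of the progenitor-like class. They were chosen by those same UMIs, so part of such a share is built in, and how much was not tested. The fibroblast-like class had 20 of 56 cells (35.7%) and 197 of 624 cells (31.6%) at that level, with 83.1% and 82.0% of its member UMIs. The level of 5 UMIs was set after the distribution had been seen and cuts a range rather than separating types: 15 and 33 progenitor-like cells held 3 or 4 member UMIs, and 4 and 7 cells held 5 or 6.

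**Figure D4:**
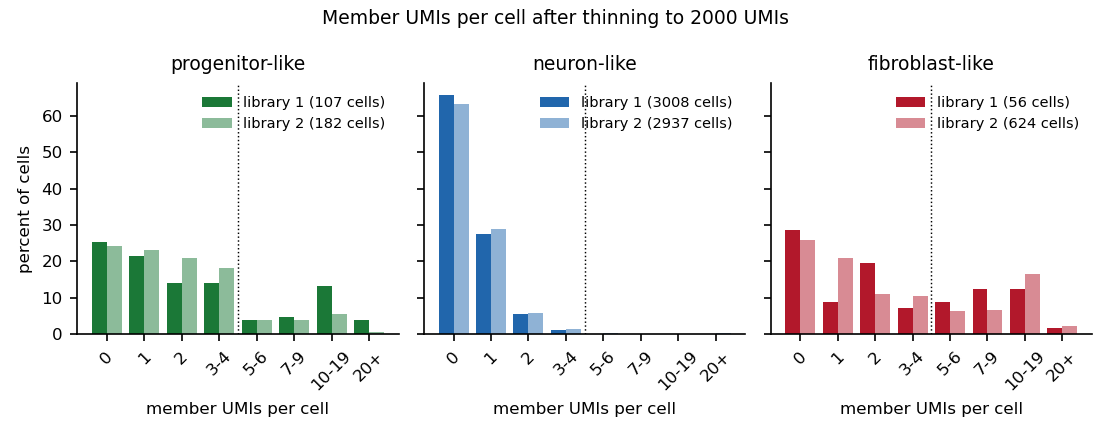
Distribution of member UMIs per cell after thinning to 2000 UMIs, as the percentage of the cells of each class in libraries 1 and 2, with a dotted line below 5 UMIs. Neuron-like cells sat mostly at 0, and the bars right of the line add up to 25.2% and 13.7% of progenitor-like and 35.7% and 31.6% of fibroblast-like cells.

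Single genes were found in few cells of any class. *ccnd1* had a UMI in 20 of 107 and 24 of 182 thinned progenitor-like cells (18.7% and 13.2%) and in 0.0997% and 0.0681% of neuron-like cells. *cdk6* was found in 13.1% and 25.3% of progenitor-like cells, against 0.831% and 0.953% of neuron-like cells and 7.14% and 4.49% of fibroblast-like cells. *pcna* was found in 10.3% and 6.59% of progenitor-like, 17.9% and 28.2% of fibroblast-like, and 0.931% and 0.953% of neuron-like cells. The order of the classes for these genes was that of their CPM. *mcm7* was found in 6.82% and 5.72% of neuron-like cells, against 12.1% and 4.40% of progenitor-like cells, whose intervals of 6.63 to 19.9 and 1.92 to 8.48 overlap those of the neuron-like cells.

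The thinned cells were also sorted by whether they held replication transcripts, mitosis transcripts or both. For single cells the sets held 14 replication and 20 mitosis genes, and so differed from the roles above. At 2 or more UMIs of a set, 12.1% and 6.04% of progenitor-like cells held replication transcripts alone, 11.2% and 8.24% mitosis transcripts alone, and 8.41% and 4.40% both. Neither set reached 2 UMIs in 68.2% and 81.3% of progenitor-like cells, in 55.4% and 60.7% of fibroblast-like cells and in 99.4% and 98.9% of neuron-like cells. Fibroblast-like cells held replication transcripts alone in 23.2% and 24.2% of cells and mitosis transcripts alone in 17.9% and 6.57%. A cell just under 2 UMIs of a set counted as lacking it, so these shares cannot tell absence from a detection limit. Whether the sets shared cells more or less often than if independent was not tested. UMIs were compared with the replication and mitosis roles instead of these sets, so they do not cover the same genes as the shares of cells. Without *aurkaip1*, the replication genes were counted 1.12 times (counting interval 0.928 to 1.34) and 1.5 times (1.25 to 1.81) as often as the mitosis genes in progenitor-like cells. In fibroblast-like cells this ratio was 0.894 (0.744 to 1.07) in library 1 and 3.09 (2.9 to 3.29) in library 2, so that the libraries differed beyond counting error. In neuron-like cells it was 6.08 and 4.07, and with *mcm7* and *rrm2b* also left out it was 2.53 and 2.21, against 0.951 and 1.26 in progenitor-like and 0.815 and 2.87 in fibroblast-like cells, so the order of the classes differed between the libraries. Of the 422 and 763 neuron-like replication UMIs left without these genes, 186 and 398 were of *rrm2*, which was high in cluster 4 alone.

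The progenitor-like cells of the 2 libraries also differed in which members they held. Cyclins, mitosis and centromere genes summed to 396, 533 and 378 CPM in library 1 against 257, 339 and 180 CPM in library 2, while the kinases were at 177 and 197 CPM and the E2F factors at 55.3 and 52.2 CPM. Of the most abundant members, *cdk6* and *ccnd2a* were higher in library 2 and *mki67*, *cenpf* and *kif11* in library 1. With 1 progenitor-like sum per library this difference could not be tested. Markers of the oligodendrocyte lineage (*olig2*, *olig1*, *sox10*, *nkx2.2a*, *plp1b*) moved with it, at 153 CPM in library 1 and 453 CPM in library 2 in progenitor-like cells, and their part in it was not tested. Blood markers, almost wholly globins because *alas2* was at most 0.151 CPM, summed to 66.4 and 409 CPM in progenitor-like and 49.5 and 892 CPM in neuron-like cells. Their sum was higher in library 2 in every class.

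Progenitor-like cells with at least 5 member UMIs differed from the other progenitor-like cells in further genes, picked after their values had been seen and given here without a test. *fabp7a*, a fatty acid binding protein of radial glia, was at 1478 and 1594 CPM in them against 3641 and 5548 CPM in the rest. *her4.1*, a Notch target, was at 1200 and 951 CPM against 2358 and 1455 CPM. *sox2*, a transcription factor of neural stem cells, was at 356 and 360 CPM against 229 and 213 CPM. The progenitor markers did not move together. *fabp7a*, *her4.1*, *her4.2*, *notch1a* and *slc1a3b* were lower in both libraries, the last on 1 UMI in library 1. *sox2*, *sox19a* and *her6* were higher in both, *her6* at 443 and 257 CPM against 418 and 149 CPM. *sox3*, *notch3*, *vim* and *gfap* went opposite ways in the 2 libraries, *gfap* at 3790 and 3180 CPM against 3562 and 3579 CPM. The neuron marker *elavl3* was at 339 and 703 CPM in the cells with more member UMIs, against 918 and 1083 CPM in the rest. The other neuron markers were lower in them in library 1 and higher in library 2. The cells with more member UMIs were also deeper before thinning, with a median of 3949 and 4377 UMIs against 3162 and 3801.

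Among the 12 neuron-like clusters, 1 stood apart. Cluster 4, of 63 cells from library 1 and 207 from library 2, had a summed member level of 1485 CPM, and the other 11 clusters lay between 165 and 335 CPM. Its *rrm2* level was 385 CPM, above that of the progenitor-like cells, and *rrm2* and *hmgb2a*, which was kept out of the clustering as well, were among its 10 leading genes. The excess rested on few cells: 6 of 51 and 10 of 197 thinned cells of the cluster held at least 5 member UMIs and carried 81.3% and 74.1% of its member UMIs. They were 16 of the 28 such cells in the whole neuron-like class. Without cluster 4, 0.135% and 0.292% of neuron-like cells reached 5 member UMIs, and 51 members were called higher in progenitor-like than in neuron-like cells. The share of all genes called without cluster 4 is not given.

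**Figure D5:**
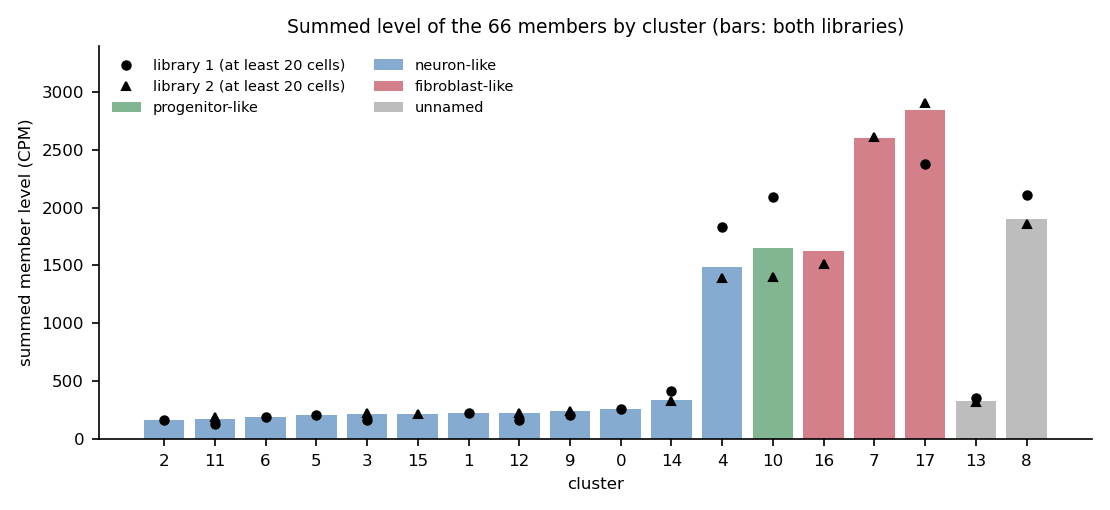
Summed level of the 66 members in CPM for each of the 18 clusters, as bars over both libraries coloured by class, with a circle or triangle for a library with at least 20 cells in the cluster. Cluster 4 reached 1485 CPM among neuron-like clusters that otherwise lay between 165 and 335 CPM, and the unnamed cluster 8 stood near the progenitor-like cluster.

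The 28 neuron-like cells with at least 5 member UMIs (10 in library 1 and 18 in library 2) took that name from their clusters. They differed from the other neuron-like cells in several genes. Summed over these cells, only *elavl3* and *gng3* of the 6 neuron markers reached 100 CPM in library 1, and all but *stmn2a* did in library 2. The early neuronal gene *elavl3* was found in all 28, at 1682 and 2483 CPM. Genes of later neurons were low in them: *elavl4* was at 54.3 and 404 CPM against 1295 and 1583 CPM in the other neuron-like cells, and *snap25a*, a gene of synaptic vesicle release, at 18.1 and 193 CPM against 1575 and 1397 CPM. *insm1a*, which acts in newborn neurons, was at 1845 and 2053 CPM against 237 and 163 CPM, and *hes6* at 1791 and 1571 CPM against 199 and 226 CPM. *vsx1*, a transcription factor of V2 interneuron precursors, was at 434 and 377 CPM, in 6 of 10 and 9 of 18 cells, and below 1 CPM in the other neuron-like cells. *foxn4*, a transcription factor of the same precursors, was at 289 and 342 CPM, in 5 of 10 and 9 of 18 cells. Of the progenitor markers, *her4.2* was at 470 and 702 CPM against 12.5 and 39.5 CPM, *sox3* at 1031 and 167 CPM against 16.6 and 20.9 CPM, and *her6* at 217 and 219 CPM against 6.52 and 4.63 CPM. *her4.1*, *notch1a*, *notch3*, *sox19a* and *gfap* were also higher in both libraries, *her4.1* at 308 and 158 CPM against 11.9 and 20.2 CPM, and *notch3* and *sox19a* on few UMIs. *vim* was lower in both, at 235 and 149 CPM against 393 and 330 CPM, and *slc1a3b* had no UMI in these cells. *fabp7a* was at 18.1 and 26.3 CPM against 13.9 and 37.4 CPM, and *sox2* at 18.1 and 0 CPM against 0.762 and 0.849 CPM. These genes were chosen after their values had been seen, and the cells had a higher median depth (5552 and 6834 UMIs) than the other neuron-like cells (3790 and 4394 UMIs).

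Between excitatory and inhibitory neurons, the division that the study draws within the V0v cells, the summed level of the members was nearly equal. Neuron-like cells with a *slc17a6a* or *slc17a6b* UMI and none of *slc6a5*, *slc6a1b*, *gad1b* or *gad2* numbered 941 and 957, and those with the opposite pattern 868 and 1016. All members summed to 218 and 229 CPM in the excitatory cells and 213 and 244 CPM in the inhibitory cells (mean log2 ratio 0.03 ± 0.09, SD, n = 2). *aurkaip1* made up 35.0% to 45.7% of these sums, and without it they were 130 and 124 CPM in excitatory against 139 and 155 CPM in inhibitory cells. The replication genes summed to 67.2 and 62.1 CPM against 82.9 and 75.3 CPM, higher in inhibitory cells in both libraries. Most of that gap lay in a single gene, *mcm7*, whose levels are given below. Of the 16 replication genes, 7 were higher in inhibitory cells in both libraries and 4 were lower in both. Of these differences between sums none was tested. Only 15 members had enough counts to be tested, of which 2 were higher in inhibitory cells and 0 lower, where 8.30% and 8.13% of all genes tested were higher and lower. With 2 of 15, the count alone does not set the members apart. At an unadjusted p under 0.05 these counts were 3 and 1, and no share of all genes is given at that threshold.

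The 2 genes were *mcm7* and *e2f3*. *mcm7* was at 38.3 and 31.1 CPM in inhibitory and 25.8 and 21.0 CPM in excitatory cells (0.59 ± 0.14, adjusted p = 0.0058), and *e2f3* at 4.15 and 4.99 CPM against 1.02 and 1.55 CPM (1.81 ± 0.51, adjusted p = 0.017). Both were higher in both libraries, *e2f3* on few UMIs. DESeq2 called 0 members, also at an unadjusted p under 0.05, and a fit without the library term called 0 as well, with 3 higher at an unadjusted p under 0.05.

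Genes around the cycle that the symbol rule does not take in were described from 4 further lists. Of 36 other mitosis genes, 33 were tested and 32 were higher in progenitor-like than in neuron-like cells, with a median log2 fold change of 3.81. Of all genes tested, 21.2% were higher in that comparison, and their median was −0.15. *cdc20*, the activator of the anaphase-promoting complex, was at 97.3 and 52.2 CPM against 1.23 and 2.50 CPM (5.26 ± 0.37, adjusted p = 3.6e-44). Of 35 other replication genes, 32 were tested and 21 were higher, with a median of 2.01. *dut*, which keeps uracil out of DNA, was at 146 and 104 CPM against 5.56 and 13.0 CPM (3.85 ± 0.29, adjusted p = 5.0e-39). In fibroblast-like against neuron-like cells 32 of the 33 and all 32 were higher, where 30.9% of all genes tested were. Progenitor-like cells were lower than fibroblast-like cells in 25 of the 32 other replication genes. Of the 33 other mitosis genes 7 were lower and 2 higher in progenitor-like cells, where 17.2% and 13.5% of all genes tested were. Their median log2 fold change was −0.96, beside −0.03 for all genes tested.

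Of 13 genes for CDK inhibitors and pocket proteins, 11 were tested, 3 were higher in progenitor-like than in neuron-like cells and 0 lower, with a median log2 fold change of 0.61. The share called higher was close to the 21.2% of all genes tested. *cdkn1ca*, a p57 gene, was at 420 and 629 CPM in progenitor-like cells, 129 and 133 CPM in neuron-like cells and 15.3 and 19.3 CPM in fibroblast-like cells. It was higher in progenitor-like than in neuron-like cells (2.03 ± 0.25, adjusted p = 2.9e-15) and than in fibroblast-like cells (4.62 ± 0.32, adjusted p = 3.1e-45), so an inhibitor and *cdk6* were both highest in the same class. *cdkn1bb*, a p27 gene, was between 181 and 256 CPM in all classes and libraries (0.23 ± 0.25, adjusted p = 0.47). *cdkn1a*, the p21 gene, was low in neuron-like cells at 3.6 and 0.908 CPM, and highest in fibroblast-like cells at 27.6 and 38.4 CPM.

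Of 6 genes linked to cell cycle exit, 2 were higher and 1 lower in progenitor-like than in neuron-like cells, where 21.2% and 25.3% of all genes tested were, so the count alone does not set the list apart. *gadd45gb.1*, a stress-response gene known to be made where neural precursors stop dividing, was at 560 and 424 CPM in progenitor-like, 13.4 and 19.5 CPM in neuron-like and 6.13 and 0.560 CPM in fibroblast-like cells (4.94 ± 0.28, adjusted p = 2.1e-68). *btg2*, an antiproliferative gene of neural precursors, was at 451 and 834 CPM in progenitor-like and 97.0 and 86.5 CPM in neuron-like cells (2.74 ± 0.26, adjusted p = 6.1e-24). In fibroblast-like cells it was at 266 and 586 CPM, also above neuron-like cells (2.37 ± 0.27, adjusted p = 2.7e-18). Its difference between progenitor-like and fibroblast-like cells did not pass the test (0.37 ± 0.25, adjusted p = 0.29). *tob1a*, of the same family, was at 237 and 255 CPM in progenitor-like against 434 and 346 CPM in neuron-like cells (−0.59 ± 0.25, adjusted p = 0.037).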

How the data were processed

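Per the labels and the study's methods, the authors sorted EGFP-positive trunk cells, prepared 10x 3′ libraries and counted UMIs per gene and cell with Cell Ranger 4.0.0 on the Lawson Lab zebrafish transcriptome annotation. The submitters' processing notes also name Partek. The deposited values are raw counts, checked to be whole numbers, and reads and empty droplets were not analysed here.

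Cells with at most 12000 UMIs, 500 to 2500 genes and at most 6% mitochondrial UMIs were kept, limits that follow the study. Cells above the upper limits were the only multiplets removed. Leiden clusters (Python 3.11.15, scanpy 1.11.5, igraph 0.11.9, 2000 variable genes, 30 principal components, 15 neighbours, resolution 1, seed 1) were computed without 156 cell cycle genes. A cluster was neuron-like with at least 4 of 6 neuron markers at 100 CPM and more of these than of any other type. Otherwise it took the type with most markers met, if at least 3 reached 100 CPM and 3 times the median cluster. It stayed unnamed if no type reached 3 markers, if more than 2 types did, or if the best types tied. Neuron-like cluster 14 met 4 neuron and 3 progenitor markers.

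UMIs were summed per library and class (326474 to 13218143 UMIs per sum) and tested with edgeR 4.0.16 in R 4.3.3 (two-sided quasi-likelihood test, TMM, filterByExpr, class and library as terms) over 13179 genes, or 12283 genes for the neurons split by transmitter genes, with Benjamini-Hochberg adjustment and a threshold of 0.05. The script was tested on simulated data. Every class came from both libraries, so the library was a block in the fit. Replicates are libraries, and nothing in the labels shows separate clutches. With the library as a block, p-values measure only how much class differences varied between these 2 libraries. The estimate of that spread is partly shared over all genes tested. The standard error of a log2 fold change was its size over the root of its F value. Shares were computed after thinning to 2000 UMIs with exact binomial intervals (scipy 1.17.1). DESeq2 1.42.0 served as an alternative.

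Named members were the 4 with the highest mean CPM of each role in progenitor-like cells, members whose call went against most of their role, and the 3 highest and 3 lowest fold changes. Some genes outside this rule are named with their call. Members, lists and naming thresholds were chosen with earlier results of these data known. By symbol, 64 of the 66 members matched RefSeq, and 22 overlapped another gene there. Whether counting used strand is not given in the sources used here, so overlapping genes are uncertain. Gene sequences were not used here.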

Additional observations from a re-analysis of the deposited data

Results flagged for a closer look

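Some cells outside the comparisons held cell cycle transcripts well above the neuron-like level of 245 and 313 CPM, while others were near it. Above the upper limits for UMIs and genes, 140 cells of library 1 had a summed member level of 251.263 CPM and 745 cells of library 2 had 1420.85 CPM, while the cells within the limits had 397 and 824 CPM. In library 2, 202 of these cells were fibroblast-like when clustered with the rest, at 3753 CPM against 2308 CPM within the limits, and 55.4% of them held at least 5 member UMIs after thinning, against 29.9% within. Neuron-like cells above the limits stood at 318 and 315 CPM.

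The unnamed cluster 8 had 2105.86 CPM in library 1 (45 cells) and 1857.27 CPM in library 2 (262 cells), at least 5 member UMIs in 31.4% and 25.0% of its thinned cells, and *s100a11*, *sparc*, *col1a2*, *krt4*, *krt8* and *col2a1a* among its leading genes. Its markers were mixed: 5 fibroblast, 4 skin, 4 blood, 3 progenitor and 3 notochord markers were met, so it took no name. The unnamed cluster 13 had 357.233 CPM (79 cells) and 323.99 CPM (415 cells), with *gch2*, *gstp1*, *uraha* and *pts* leading. Cluster 8 was far above the neuron-like level of 245 and 313 CPM, which served as the background. Cluster 13 was nearer to that level, above all in library 2. Over both libraries cluster 13 was at 329 CPM with *mki67* at 0 CPM, below the 335 CPM of neuron-like cluster 14. Its cyclins (63.2 CPM), centromere genes (40.2 CPM) and replication genes (123 CPM) were above those of every neuron-like cluster except cluster 4. So was its *pcna* (26.8 CPM). Its kinases and mitosis genes lay within their range, and its E2F factors (5.11 CPM) and *mcm7* (16.0 CPM) below it. At least 5 member UMIs were found in 4.23% and 1.82% of its thinned cells (3 and 6 cells), against 0.332% and 0.613% of neuron-like cells.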

How the results depend on the processing

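Across 13 other settings, 42 to 58 members were called between progenitor-like and neuron-like cells and 42 to 60 between fibroblast-like and neuron-like cells, every one within 1.5 times the counts reported. The split between progenitor-like and fibroblast-like cells moved more: 22 members were called in the report, 44 without the upper limits on UMIs and genes (3 higher and 41 lower in progenitor-like cells), 12 with count splitting, 6 with DESeq2 and 14 without the replicate block. Without the replicate block, in which the library is the block, the counts were 48 for progenitor-like and 54 for fibroblast-like against neuron-like cells and 0 for the neurons split by transmitter. For those neurons the 2 calls became 6 without upper limits, 1 with count splitting and 0 with DESeq2. No share of all genes is given for the other settings, so their counts lack a background. The summed log2 ratio of inhibitory to excitatory cells was 0.14 without upper limits and 0.21 with count splitting, and that of progenitor-like to fibroblast-like cells was −0.12 with count splitting. Leaving out each library in turn gave 2.16 to 3.10, 2.95 to 3.38, −0.79 to −0.28 and −0.031 to 0.10 for the 4 summed ratios, in the order of the report. For gene counts it leaves no residual degrees of freedom, so no value was computed.

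Shares of cells moved with depth. The mean share of progenitor-like cells with a member UMI was 75.3%, and 56.6% at 1000 UMIs, 83.6% unthinned, 73.6% without upper limits, 72.2% at a 10% mitochondrial limit, 76.7% with cell cycle genes kept for clustering, 76.9% with count splitting, 71.5% and 74.0% at resolutions 0.5 and 2, and 76.0% with genes centred within libraries. At least 5 UMIs were found in 19.5% of them, and in 9.46% at 1000 UMIs, 31.4% unthinned and 36.8% with count splitting. Shares with count splitting cover only the deepest cells. There 130 and 167 progenitor-like cells were too shallow to be thinned, which left 46 and 131, and so were 1936 and 1149 neuron-like cells. For neuron-like cells the share with a UMI was 20.7% at 1000 UMIs and 56.7% unthinned, and that with 5 was 1.3% unthinned, 0.123% with count splitting, 0.225% at resolution 2 and 0.214% without cluster 4. For fibroblast-like cells the first share was 60.5% and 89.1%, 76.9% without upper limits, 70.6% at a 10% mitochondrial limit, 69.7% at resolution 0.5 and 76.0% with *COX3* counted as mitochondrial. The second was 17.3% and 49.8%, 36.7% without upper limits and 29.8% at the 10% limit. The cause was not tested.

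Of the named genes, *ccnd1* reversed between progenitor-like and fibroblast-like cells with count splitting (−0.0085), *rrm2* reversed there with count splitting (1.03) and at resolution 2 (0.83), and *rrm2* reversed between inhibitory and excitatory cells without upper limits (0.76). Leaving out cluster 4 and counting *COX3* as mitochondrial were chosen after seeing the data. A promoter search that had been planned was not run. With 2 libraries and few UMIs in most members, the depth limits what the *orc*, *e2f* and low *cenp* genes can show.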

Other observations

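Fibroblast-like cells with at least 5 member UMIs were set beside the other fibroblast-like cells in genes picked after seeing their values, without a test. *cdkn1a*, the p21 gene of the cell cycle inhibitors, was at 52.4 and 85.0 CPM in them against 10.4 and 12.6 CPM in the rest, higher in both libraries. *col1a2*, a fibrillar collagen, was at 3640 and 3546 CPM against 3535 and 3611 CPM, and *btg2* at 255 and 403 CPM against 275 and 687 CPM. Before thinning these cells had a median of 6725 and 6460 UMIs against 4964 and 5251 in the rest.

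In the 28 neuron-like cells with at least 5 member UMIs, *cdkn2c*, a p18 gene that inhibits CDK4 and CDK6, was at 90.5 and 52.7 CPM, against 3.39 and 3.01 CPM in the other neuron-like cells. *neurod4*, a proneural factor, was at 217 and 316 CPM against 2.03 and 3.17 CPM, and *her15.1* at 3510 and 6511 CPM against 88.1 and 266 CPM. In the progenitor-like cells rich in members *insm1a* was lower than in the rest, at 17.4 and 154 CPM against 261 and 251 CPM, the opposite of its place in the neuron-like cells.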
